A study of Mus musculus with 24 samples.

Results

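The genes Ms4a1, Cd79b, Cd22, Pax5, Fcer2a, Cr2 and Bcl6 were followed across leukocytes sorted from the mouse ileum. They were chosen by name as genes of B cells and of the germinal center, and the 7 were matched by symbol and gene identifier among the 39056 genes of the count table. The mice were C57BL/6 animals carrying floxed Il4ra in every group, either without Cre (Il4raf/f) or with Vil1-Cre, whose villin promoter drives deletion in the intestinal epithelium (Il4raΔIEC), and they were either Hoil1+/+ or Hoil1-/-, the second being mutants that keep a low level of a truncated HOIL1 protein, the product of Rbck1, and so are a partial deficiency. Live CD45+ and CD45- cells were sorted from the ileum after Peyer's patches had been removed, and the CD45+ cells combined lamina propria cells with part of the epithelial fraction. Each of the 4 genotypes had 3 libraries per fraction, which gave 12 CD45+ and 12 CD45- libraries of poly-A-selected mRNA. The mice were 9.0 to 9.9 weeks old for CD45+ and 9.0 to 10.3 weeks old for CD45- libraries. Nothing in the labels says whether the 3 libraries of a group came from separate experiments, so p-values measure the spread between these libraries.

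B cells display a receptor whose signal passes through CD79A and CD79B and is tuned by co-receptors such as CD22 and the complement receptor CD21. PAX5 holds B cells to their fate and is switched off, together with most surface genes of naive B cells, when a cell becomes an antibody-secreting plasma cell. In the germinal center, a structure within lymphoid follicles, B cells under the repressor BCL6 divide, mutate their immunoglobulin genes and compete for T follicular helper cells. IL-4, signalling through IL4RA and STAT6, is a well-known inducer of CD23, the low-affinity IgE receptor encoded by Fcer2a.

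Sequencing depth was between 14938629 and 76807504 counts in CD45+ libraries. Levels are given as CPM, a gene's counts relative to the library's total, adjusted by the trimmed mean of M-values, and differences as log2 fold changes from edgeR's quasi-likelihood test with Benjamini-Hochberg adjustment over all genes tested, a gene being called at an adjusted p under 0.05. The study left out CD45+ libraries 13 (Hoil1-/- Il4raf/f) and 24 (Hoil1-/- Il4raΔIEC) as outliers, so fold changes come from 10 CD45+ libraries, with 2 in each Hoil1-/- group, while levels are given for all 12. The genotype labels were checked on Rbck1, which ranged from 79.5 to 137 CPM over the 6 CD45+ libraries of Hoil1+/+ mice and from 4.72 to 13.9 CPM over the 6 of Hoil1-/- mice. Ptprc, which encodes CD45, was at 228 to 664 CPM in CD45+ libraries and at 0 to 17.9 CPM in CD45- libraries. Il4ra itself is deleted in epithelium and not in the sorted leukocytes. Its counts, taken over the whole gene, did not separate the Il4ra genotypes in CD45- libraries and so do not check the deletion. They were at 63.7 to 173 CPM in Il4raf/f and 51.3 to 135 CPM in Il4raΔIEC libraries of Hoil1+/+ mice. In Hoil1-/- mice they were at 67.7 to 89.9 and 74.4 to 145 CPM. In CD45+ libraries the same groups were at 96.4 to 239 and 158 to 248 CPM (Hoil1+/+), and 78.6 to 136 and 93.7 to 258 CPM (Hoil1-/-).

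All 7 genes lie on the minus strand. In the annotation of build GRCm38, Ms4a1 spans chr19:11249675-11266241, Cd79b chr11:106311341-106314762, Cd22 chr7:30865402-30880342, Pax5 chr4:44524757-44710487, Fcer2a chr8:3681737-3694175, Cr2 chr1:195136811-195176716 and Bcl6 chr16:23965052-23988852. RefSeq start-site sequences of GRCm38.p6 were at hand for 5 of the 7 genes, in 8 windows running from 250 bases before to 50 bases after a start site. They were searched on both strands for 7 short letter patterns. The 250 bases before 3 of these starts are shown because they carry the letters of STAT factors, which act downstream of cytokine receptors, or of an E-box, the letters read by the E2A family of B cell factors.

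The first is the internal Fcer2a start, chr8:3690862-3691111, minus strand, 5′ to 3′, with capitals marking a match to the STAT6 pattern TTCNNNNGAA and a pair of E-boxes CAGGTG.
Fcer2a: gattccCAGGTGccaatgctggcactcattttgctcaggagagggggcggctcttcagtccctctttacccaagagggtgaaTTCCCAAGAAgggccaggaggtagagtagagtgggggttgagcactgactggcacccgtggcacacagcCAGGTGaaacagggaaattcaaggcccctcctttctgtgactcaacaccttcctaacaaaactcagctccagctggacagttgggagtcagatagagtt
The next is Cr2, chr1:195176720-195176969, minus strand, with an E-box in capitals, read on the opposite strand.
Cr2: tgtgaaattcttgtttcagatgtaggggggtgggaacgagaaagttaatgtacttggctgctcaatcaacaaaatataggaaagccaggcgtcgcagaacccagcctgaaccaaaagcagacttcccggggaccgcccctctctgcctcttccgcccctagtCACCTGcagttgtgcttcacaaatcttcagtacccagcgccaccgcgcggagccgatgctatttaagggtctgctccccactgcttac
The last is the internal Bcl6 start, chr16:23981284-23981533, minus strand, with 3 matches to TTCNNNGAA, the spacing read by other STAT factors, in capitals.
Bcl6: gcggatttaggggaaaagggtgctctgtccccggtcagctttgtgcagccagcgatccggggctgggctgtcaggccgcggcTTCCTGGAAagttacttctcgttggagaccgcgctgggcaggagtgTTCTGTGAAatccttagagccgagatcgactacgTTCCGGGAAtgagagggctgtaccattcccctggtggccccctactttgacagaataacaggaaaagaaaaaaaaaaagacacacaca

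Counted from the start site, the STAT6-type match at Fcer2a covered bases -168 to -159, a pattern found in 6.95% of 32851 windows of the same length. Its E-boxes covered -244 to -239 and -99 to -94, and that of Cr2 covered -88 to -83, against 20.2% of windows with an E-box. The Bcl6 matches began at -168, -122 and -88, and 8.30% of windows had a TTCNNNGAA match. The upstream Bcl6 window had such a match at -118, and the Cd22 window had an E-box and the EBF core CCCNNGGG, which is in 13.7% of windows. The octamer ATGCAAAT, in 1.74% of windows, the PAX5 letters GCGTGAC, in 2.09%, and the BCL6 letters TTCCTAGAA, in 0.411%, were in no window of these genes. The other Fcer2a windows had no match to any of the patterns searched, among them the one at the gene's 5′ end (chr8:3694175-3694424). The Pax5 window had none either. The patterns TTCNNNNGAA and TTCNNNGAA differ in spacing only and a base can belong to both. No binding was measured, and a match is a description of letters.

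The plot of CPM by library shows that in the Hoil1+/+ background most of these genes were at higher levels in Il4raΔIEC than in Il4raf/f leukocytes, that the extent differed widely between genes, and that the Hoil1-/- libraries were scattered.

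**Figure D1:**
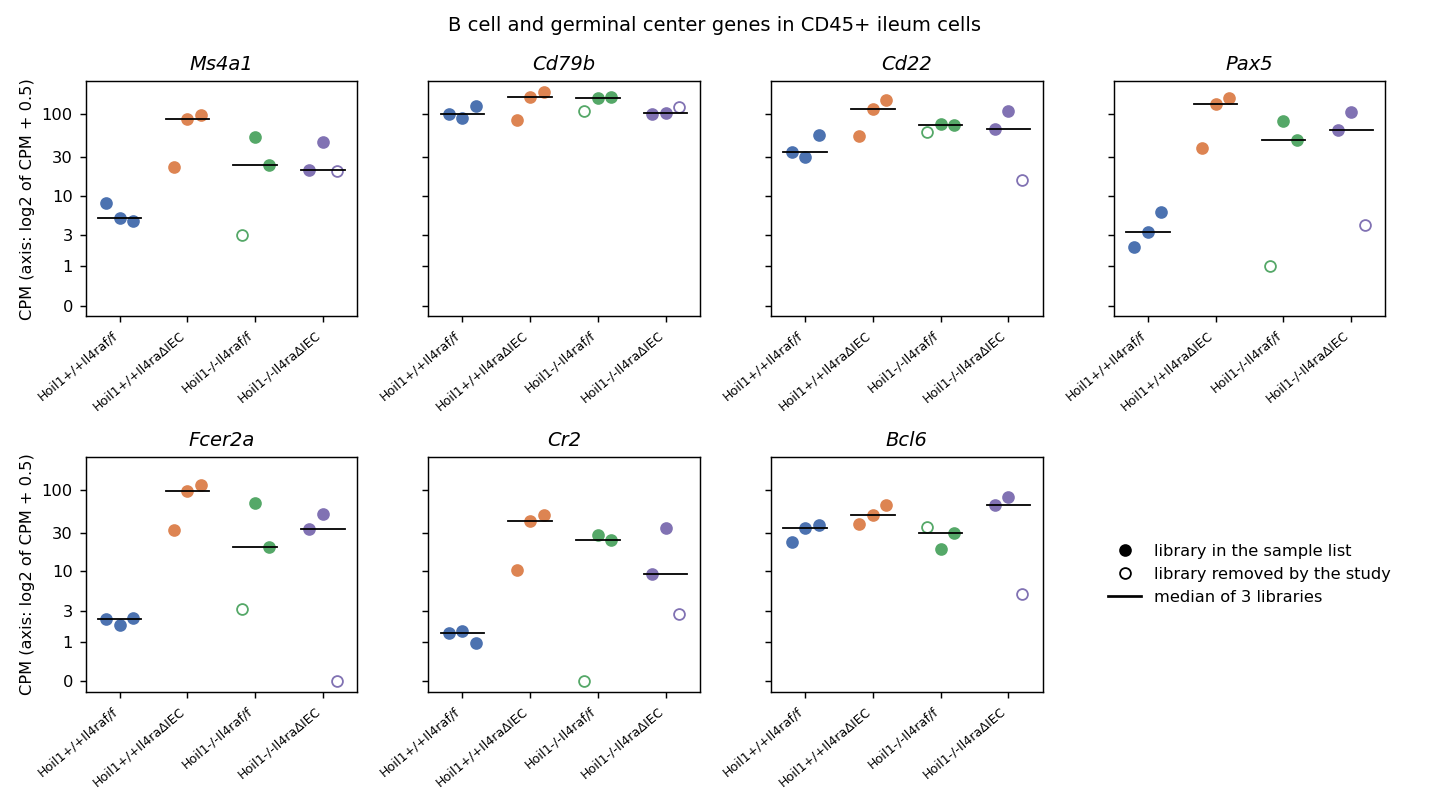
Level of each of the 7 genes in CPM in the 12 CD45+ libraries, grouped by genotype. Points are libraries, with open symbols for the 2 that the study left out. In Hoil1+/+ mice the 3 Il4raΔIEC libraries lie above the 3 Il4raf/f libraries for Ms4a1, Pax5, Fcer2a, Cr2 and Bcl6, and the groups overlap for Cd79b and Cd22.

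Pax5, the transcription factor of B cell identity, varied most among the 5 genes with a count in every CD45+ library, with 156 times between its highest and lowest libraries. It was at 2.07, 3.38 and 6.17 CPM in Hoil1+/+ Il4raf/f libraries 12, 18 and 19. In Hoil1+/+ Il4raΔIEC libraries 20, 21 and 22 it was at 38.5, 132 and 158 CPM. These groups did not overlap, and library 20 was the lowest of its group for every one of the 7 genes. In Hoil1-/- Il4raf/f libraries 13, 14 and 15, Pax5 was at 1.01, 82.6 and 48.4 CPM. In Hoil1-/- Il4raΔIEC libraries 16, 17 and 24 it was at 64.5, 105 and 4.23 CPM. Both Hoil1-/- groups thus held 1 library at the level of the Hoil1+/+ Il4raf/f group, in each case the library the study left out. The group means were 3.87 ± 2.09, 110 ± 62.9, 44.0 ± 41.0 and 58.0 ± 50.9 CPM (SD, n = 3) in the order just given.

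Fcer2a, the IgE receptor CD23 of mature follicular B cells, had the tightest low group. It was at 2.32, 1.86 and 2.37 CPM in Hoil1+/+ Il4raf/f libraries, a mean of 2.18 ± 0.279 CPM (SD, n = 3). It was at 32.8, 95.8 and 113 CPM in Hoil1+/+ Il4raΔIEC libraries. The lowest library of the second group was therefore above the highest of the first by more than an order of magnitude. In Hoil1-/- Il4raf/f libraries it was at 3.25, 69.3 and 20.1 CPM. In Hoil1-/- Il4raΔIEC libraries it was at 33.4, 50.8 and 0 CPM, where the 0 of library 24 allows a level of up to 0.117 CPM, the value of 3 counts. Such floors cover counting error only.

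Cr2, which encodes the complement receptors CD21 and CD35 of B cells and follicular dendritic cells, followed the same order at lower levels. It was at 1.41, 1.51 and 0.93 CPM in Hoil1+/+ Il4raf/f libraries and at 10.4, 41.9 and 49.7 CPM in Hoil1+/+ Il4raΔIEC libraries, with no overlap. It was at 0, 28.5 and 24.5 CPM in Hoil1-/- Il4raf/f libraries, the 0 of library 13 allowing up to 0.105 CPM, and at 9.29, 34.6 and 2.74 CPM in Hoil1-/- Il4raΔIEC libraries. The Hoil1-/- groups overlapped with each other.

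Ms4a1, which encodes the B cell surface protein CD20, was at 8.09, 5.24 and 4.68 CPM in Hoil1+/+ Il4raf/f libraries. It was at 22.7, 88.0 and 98.4 CPM in Hoil1+/+ Il4raΔIEC libraries, again without overlap. In Hoil1-/- mice it was at 3.04, 53.3 and 23.9 CPM in Il4raf/f and at 21.1, 45.8 and 20.4 CPM in Il4raΔIEC libraries. Library 13 was the lowest of the 12 for Ms4a1, as for Pax5 and Cr2.

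The receptor genes were steadier. Cd79b, the signalling subunit of the B cell receptor, was at 102, 89.3 and 126 CPM in Hoil1+/+ Il4raf/f libraries, at 84.1, 162 and 186 CPM in Hoil1+/+ Il4raΔIEC, at 110, 157 and 161 CPM in Hoil1-/- Il4raf/f and at 101, 102 and 122 CPM in Hoil1-/- Il4raΔIEC libraries. All 4 groups overlapped for Cd79b, and its highest library was 2.22 times its lowest. Cd22, the inhibitory co-receptor that dampens the receptor's signal, was at 34.9, 30.1 and 55.8 CPM in Hoil1+/+ Il4raf/f and at 54.8, 115 and 148 CPM in Hoil1+/+ Il4raΔIEC libraries, which overlapped between libraries 19 and 20. In Hoil1-/- mice Cd22 was at 60.1, 75.1 and 74.9 CPM in Il4raf/f and at 65.6, 110 and 15.5 CPM in Il4raΔIEC libraries. The 15.5 CPM of library 24 was the lowest Cd22 value of the 12.

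Bcl6, the repressor that germinal center B cells and T follicular helper cells need, had an order of its own. It was at 23.3, 34.1 and 38.0 CPM in Hoil1+/+ Il4raf/f and at 38.3, 50.1 and 65.7 CPM in Hoil1+/+ Il4raΔIEC libraries, so that the groups lay next to each other without overlap. It was at 35.2, 18.9 and 29.8 CPM in Hoil1-/- Il4raf/f libraries. In Hoil1-/- Il4raΔIEC it had both its highest levels, 66.4 and 81.9 CPM in libraries 16 and 17, and its lowest, 5.13 CPM in library 24. Library 14, ranked highest among Hoil1-/- libraries for Ms4a1 and Fcer2a, had the lowest Bcl6 level after library 24.

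Per kilobase of exonic sequence, which allows levels to be compared between genes, the median over the 12 CD45+ libraries was 81.1 CPM per kilobase for Cd79b, 12.5 for Cd22, 8.55 for Fcer2a, 5.46 for Bcl6, 4.91 for Pax5, 3.54 for Ms4a1 and 1.22 for Cr2. The most abundant of these mRNAs was thus the one that varied least.

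The libraries were also ordered by their mean rank over the 6 genes other than Bcl6. Library 22 had the highest level of each of the 6 and library 21 the next (mean ranks 1.0 and 2.0), both Hoil1+/+ Il4raΔIEC. Libraries 14, 17, 15 and 16, the Hoil1-/- libraries that the study kept, came after them, with library 14 at a mean rank of 3.67. Library 20 followed at 7.67, and the lowest places went to the 3 Hoil1+/+ Il4raf/f libraries and to libraries 13 and 24, the last being library 18 at 10.3. The order is a description of these values and was not tested.

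**Figure D2:**
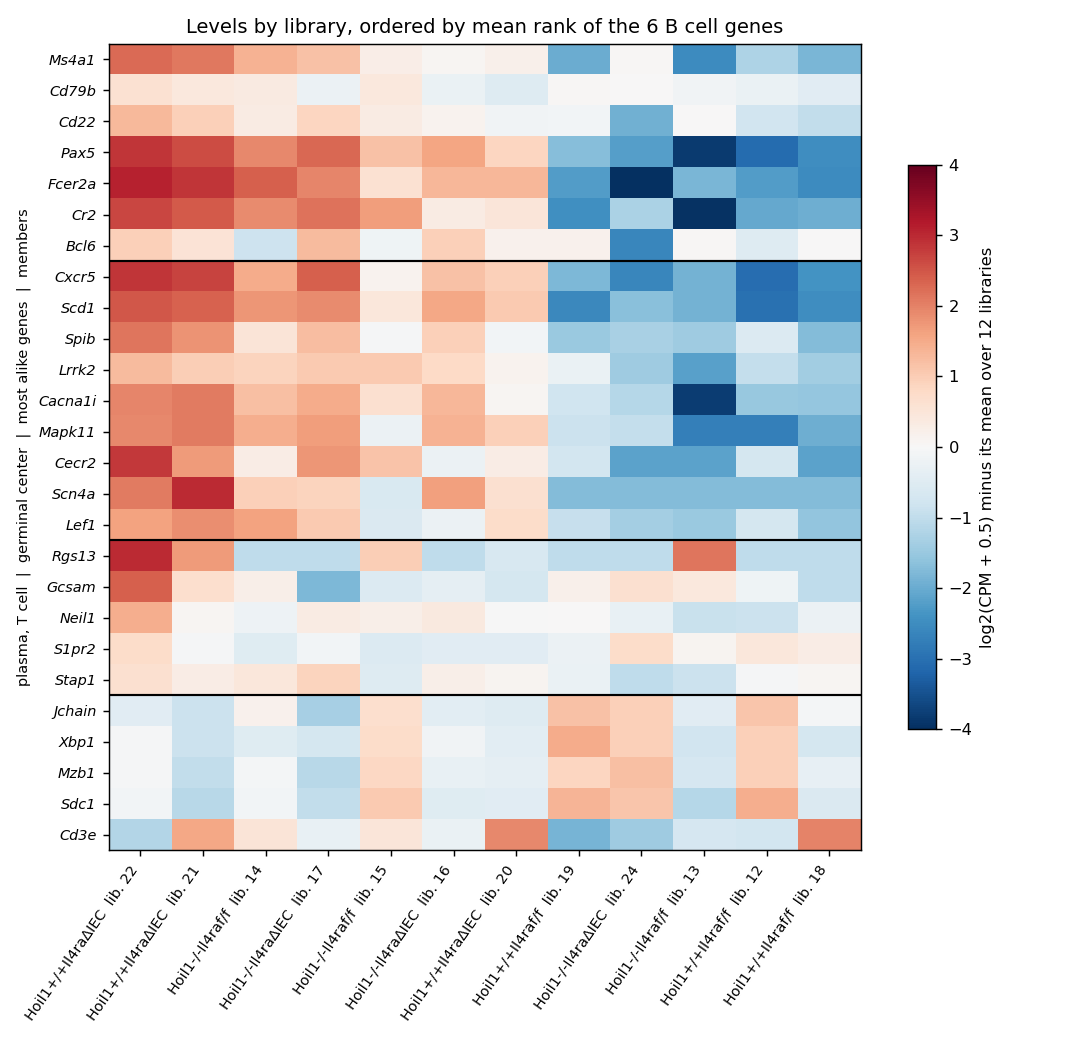
Heat map of the 7 genes, of genes with a like pattern, and of germinal center, plasma cell and T cell genes in the 12 CD45+ libraries, as log2(CPM + 0.5) minus each gene's mean over the libraries. Libraries are ordered by mean rank over the 6 genes other than Bcl6. Libraries 22 and 21 (Hoil1+/+ Il4raΔIEC) come first and library 18 (Hoil1+/+ Il4raf/f) last, and Bcl6 does not follow that order.

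The effect of deleting Il4ra from the epithelium was first tested in Hoil1+/+ leukocytes, with 3 libraries against 3. This contrast and the other comparisons within a genotype were chosen after the data were seen. The log2 fold change of Il4raΔIEC against Il4raf/f was 5.25 for Fcer2a (SE 0.61, adjusted p = 0.0559), 4.87 for Pax5 (SE 0.63, adjusted p = 0.0559), 4.76 for Cr2 (SE 0.68, adjusted p = 0.0674) and 3.58 for Ms4a1 (SE 0.60, adjusted p = 0.132). The intervals at 95% confidence ran from 3.89 to 6.61 for Fcer2a and from 2.25 to 4.91 for Ms4a1. The log2 fold change was 1.44 for Cd22 (SE 0.38, adjusted p = 0.409), 0.74 for Bcl6 (SE 0.28, adjusted p = 0.532) and 0.49 for Cd79b, whose interval of -0.15 to 1.13 includes 0 (adjusted p = 0.575). By edgeR's quasi-likelihood test 0 of the 7 genes were called, where 0.00587% of 17029 genes were called, a single gene. At an unadjusted p under 0.05 there were 6 of the 7 genes, all but Cd79b, and 1555 of the 17029. For 5 of the 7 genes, Ms4a1, Pax5, Fcer2a, Cr2 and Bcl6, all 3 Il4raΔIEC libraries were above all 3 Il4raf/f libraries, which 6.16% of genes tested also showed. With 3 libraries against 3, an exact permutation test of a single gene cannot give a two-sided p below 0.1.

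The call in this contrast turned on the test. DESeq2 called 5 of the 7, namely Ms4a1, Cd22, Pax5, Fcer2a and Cr2, against 1.54% of the genes for which it gave an adjusted p, and edgeR's likelihood ratio test called 4 of them, all but Cd22, against 0.869% of genes. With no filter on low counts 4 were called against 0.0815% of genes, with the immunoglobulin genes removed 3 against 0.048%, and with scaling by total counts 2 against 0.0587%. The fold changes moved little over these settings, between 4.92 and 5.67 on the log2 scale for Fcer2a and between 1.12 and 1.91 for Cd22, leave-one-out fits included. Without library 20, the lowest of its group, 4 of the 7 were called, against 0.101% of genes. Without library 18 there were 2, against 0.365% of genes, and without library 14 or 15 there was 1, against 0.0163% of genes in each case. Where the libraries that the study left out were included, the adjusted p was 0.98 or above for all 7, with the same 6 libraries in the contrast and 16060 genes tested. The standard error for Fcer2a was then 1.59 in place of 0.61.

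Immunoglobulin genes took 12.1 to 21.5% of all counts in Hoil1+/+ Il4raΔIEC and 17.7 to 43.6% in Hoil1+/+ Il4raf/f libraries. The summed CPM of 9 plasma cell genes was 10835 to 14582 in the first group and 18226 to 44187 in the second. That of 12 macrophage and dendritic cell genes was 4106 to 6681 against 7929 to 14006. Neither sum overlapped, and both were lower where the B cell genes were higher. In bulk libraries more cells of a type and more RNA per cell cannot be told apart, and the part these lists play in the values above was not tested. Summed T cell genes (673 to 3144 against 531 to 3010 CPM) and epithelial genes (63.3 to 614 against 97.6 to 398 CPM) overlapped. Other sums were higher in Il4raΔIEC libraries without overlap. They were those of T follicular helper genes (353 to 472 against 195 to 239 CPM) and of group 2 innate lymphoid cell (ILC2) genes (185 to 287 against 124 to 163 CPM).

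**Figure D3:**
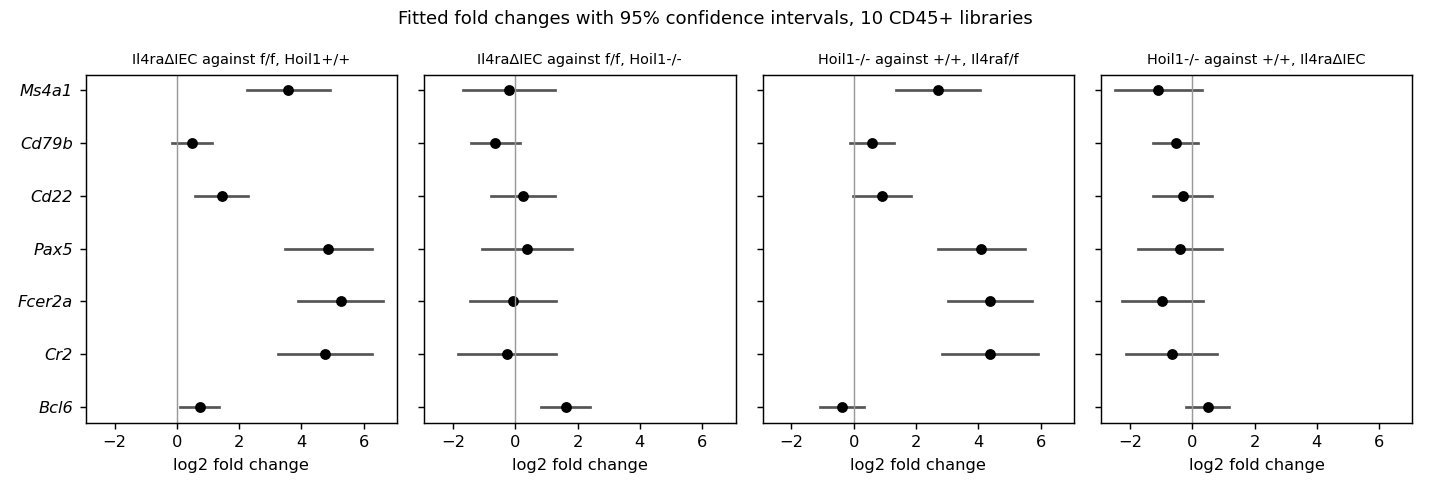
Log2 fold change of each of the 7 genes with its 95% confidence interval for Il4ra deletion within each Hoil1 genotype and for Hoil1-/- against Hoil1+/+ within each Il4ra genotype, from the 10 CD45+ libraries. Fcer2a, Pax5, Cr2 and Ms4a1 have their highest estimates for Il4ra deletion in Hoil1+/+, from 3.58 to 5.25, and estimates near 0 for the same deletion in Hoil1-/-. None passes the adjusted threshold.

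In Hoil1-/- leukocytes the same deletion gave other values. The log2 fold change, with 2 libraries against 2, was -0.20 for Ms4a1, -0.64 for Cd79b, 0.24 for Cd22, 0.38 for Pax5, -0.09 for Fcer2a and -0.27 for Cr2, and every 95% interval of these 6 genes included 0. The interval for Fcer2a ran from -1.47 to 1.30. Bcl6 differed from the other 6, with a log2 fold change of 1.62 (SE 0.35, interval 0.84 to 2.40, adjusted p = 0.479). By edgeR's quasi-likelihood test none of the 7 was called, against 0.0% of 17029 genes. At an unadjusted p under 0.05 there were 1 of the 7, Bcl6, and 1197 of all genes. DESeq2 and the likelihood ratio test called Bcl6 alone among the 7, against 1.38% and 0.264% of genes. With libraries 13 and 24 included the Bcl6 estimate was 0.87 (SE 0.68, adjusted p = 1), library 24 being the lowest of the 12 for Bcl6.

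The difference between these effects was tested as the interaction of Hoil1 and Il4ra. It was -5.34 for Fcer2a (SE 0.86), -5.03 for Cr2 (SE 0.97), -4.49 for Pax5 (SE 0.89) and -3.78 for Ms4a1 (SE 0.88) on the log2 scale, each with an adjusted p of 0.591 by edgeR's quasi-likelihood test. The Hoil1-/- libraries moved these values, with Fcer2a at -4.16 without library 14 and Cr2 at -4.37 without library 16 and -6.27 without library 17. The interaction was -1.20 for Cd22, -1.13 for Cd79b and 0.88 for Bcl6 (adjusted p = 0.701 for each). None of the 7 was called against 0.0% of genes. Unadjusted p was under 0.05 for 5 of the 7, all lower, and for 1193 genes of 17029. DESeq2 called Ms4a1, Pax5, Fcer2a and Cr2, against 1.02% of genes, and the likelihood ratio test called the same 4, against 0.399%.

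Averaged over both Hoil1 genotypes, Il4raΔIEC against Il4raf/f gave log2 fold changes of 2.62 for Pax5 (SE 0.45, adjusted p = 0.176), 2.58 for Fcer2a (SE 0.43, adjusted p = 0.176), 2.25 for Cr2 (SE 0.48, adjusted p = 0.201) and 1.69 for Ms4a1 (SE 0.44, adjusted p = 0.286). Bcl6 was at 1.18 (SE 0.22, adjusted p = 0.183), Cd22 at 0.84 and Cd79b at -0.07. The quasi-likelihood test called 0 of the 7 against 0.00587% of genes, with 6 of the 7 and 1804 of all genes at an unadjusted p under 0.05. DESeq2 and the likelihood ratio test each called 5 of the 7, Ms4a1, Pax5, Fcer2a, Cr2 and Bcl6, against 2.31% and 1.18% of genes. Bcl6 was the gene of the 7 for which the estimates in the 2 Hoil1 backgrounds had the same direction with intervals that each excluded 0, at 0.74 and 1.62. With libraries 13 and 24 included both intervals contained 0, at -0.79 to 2.17 in Hoil1+/+ and -0.62 to 2.36 in Hoil1-/-.

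The Hoil1 genotypes were compared in the same way. In Il4raf/f leukocytes, Hoil1-/- libraries 14 and 15 against the 3 Hoil1+/+ libraries gave log2 fold changes of 4.37 for Fcer2a (SE 0.61, adjusted p = 0.18), 4.37 for Cr2 (SE 0.69, adjusted p = 0.204), 4.09 for Pax5 (SE 0.63, adjusted p = 0.204) and 2.70 for Ms4a1 (SE 0.61, adjusted p = 0.614). Cd22 was at 0.90, Cd79b at 0.60 and Bcl6 at -0.38. The quasi-likelihood test called none of them, against 0.0% of genes, with 4 of the 7 and 898 of all genes at an unadjusted p under 0.05. DESeq2 and the likelihood ratio test called Ms4a1, Pax5, Fcer2a and Cr2, against 0.617% and 0.388% of genes. Without library 14 the Fcer2a estimate was 3.20 and the Ms4a1 estimate 1.98, and without library 15 Fcer2a was at 5.01 and was called (adjusted p = 0.0303), against 0.0379% of genes. With no filter on low counts Fcer2a was also called, against 0.0144% of genes. These values rest on leaving out library 13. With it included, the Fcer2a estimate was 3.82 (SE 1.49, adjusted p = 1), the Pax5 estimate was 3.51 (SE 1.30, adjusted p = 1), and Pax5 ran from 1.01 to 82.6 CPM within the Hoil1-/- group.

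In Il4raΔIEC leukocytes, Hoil1-/- against Hoil1+/+ gave log2 fold changes between -1.08 for Ms4a1 and 0.50 for Bcl6, with all 7 intervals including 0 and adjusted p between 0.776 and 0.959. None was called, against 0.0% of genes, and none of the 7 had an unadjusted p under 0.05, where 1035 of all genes did. Averaged over both Il4ra genotypes, the Hoil1 effect was 1.85 for Pax5, 1.85 for Cr2, 1.70 for Fcer2a, 0.81 for Ms4a1, 0.30 for Cd22, 0.06 for Bcl6 and 0.03 for Cd79b. The quasi-likelihood test called none of the 7 against 0.00587% of genes, the called gene being Rbck1, with 3 of the 7 and 996 of all genes at an unadjusted p under 0.05. DESeq2 and the likelihood ratio test called Pax5, Fcer2a and Cr2, against 0.771% and 0.605% of genes. The contrasts named here share libraries, so their estimates are not independent of each other.

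Levels of the surface and regulatory genes were also read relative to the geometric mean of Ms4a1 and Cd79b in the same library. Pax5 was at 0.072, 0.156 and 0.254 of that mean in Hoil1+/+ Il4raf/f libraries and at 0.881, 1.11 and 1.17 in Hoil1+/+ Il4raΔIEC libraries, without overlap. Fcer2a was at 0.0809, 0.086 and 0.0975 against 0.751, 0.803 and 0.838. Cr2 was at 0.049, 0.0698 and 0.0383 against 0.239, 0.352 and 0.367. These 3 genes were thus further apart between the groups than the geometric mean of the pair. That mean includes Cd79b, which differed little, so a gene that moves like Ms4a1 also rises against it. On their own, these ratios do not set the 3 genes apart from Ms4a1. Relative to the counts of Ms4a1 alone, each of the 3 was also higher in every Il4raΔIEC than in every Il4raf/f library of Hoil1+/+ mice. Pax5 came closest to overlap, with 232 counts to 176 of Ms4a1 in library 19 and 4241 to 2823 in library 21. This separation was not tested. Cd22 did not rise against that mean. Its ratios overlapped between these groups, with the highest in library 19 (Il4raf/f) and the lowest in library 21 (Il4raΔIEC). Bcl6 lay the other way, at 0.814, 1.58 and 1.56 against 0.877, 0.421 and 0.485, and overlapped. Over all 12 libraries the Cd79b level was between 1.84 and 36.1 times that of Ms4a1, a ratio added after the data were seen, in CPM and not per length.

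The genes moved with each other to different degrees over the 12 libraries. Pearson's r on the log2 scale, with a pseudocount of 0.5 CPM, was 0.964 for Pax5 and Cr2, 0.954 for Ms4a1 and Cr2, 0.912 for Pax5 and Fcer2a and 0.900 for Cd22 and Fcer2a. It was 0.793 for Cd22 and Bcl6 and -0.03 for Cd79b and Bcl6. The libraries fall into low and high ones, and they share scaling and a study, so these coefficients are a description with no test. The genes most alike to the mean pattern of the 6 genes other than Bcl6 were Cxcr5, the homing receptor for B cell follicles (r = 0.969), Scd1, a fatty acid desaturase (r = 0.962), Spib, a transcription factor of B cells and plasmacytoid dendritic cells (r = 0.939), and Lrrk2, a kinase (r = 0.939), followed by Cacna1i, Mapk11, Cecr2, Scn4a and Lef1 (r = 0.934 to 0.922). Scd1 was also the single gene that the quasi-likelihood test called for Il4ra deletion in Hoil1+/+ mice, with a log2 fold change of 4.90 (SE 0.50, adjusted p = 0.0347). The genes most alike to Bcl6 were Itpkc (r = 0.954), Maff (r = 0.948), Pygm (r = 0.938), Oas1b (r = 0.938) and Gtpbp6 (r = 0.937). In library 24, which the study left out and where Bcl6 was lowest, Itpkc, Maff, Pygm and Oas1b were at 0 CPM. Gtpbp6 and Cd22 were also lowest there. Spearman's coefficient with Bcl6, which uses ranks only, was 0.839 to 0.944 for the 5 most alike genes and 0.573 for Cd22.

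A list of 20 other genes of B cell identity was read in the same way, and a few of them are given here. Cxcr5 had mean levels of 3.24 CPM in Hoil1+/+ Il4raf/f and 97.1 CPM in Hoil1+/+ Il4raΔIEC libraries (log2 fold change 4.95, adjusted p = 0.0559), and Ighd, the constant region of IgD on naive B cells, at 6.55 and 103 CPM (log2 fold change 4.02, adjusted p = 0.0559). Cd79a, the partner of Cd79b, was at 262 and 325 CPM (0.35, adjusted p = 0.904), and Pou2af1, a coactivator used in B cells and plasma cells, at 181 and 146 CPM (-0.27). Of the 20 genes, 18 had a higher estimate and 0 were called, the median log2 fold change being 1.35 against 0.04 for all genes tested. Of all genes tested in this contrast, 53.0% had a higher estimate. Of 19 genes of B cell receptor signalling, 15 had a higher estimate and 0 were called, with a median of 0.35. Of 9 plasma cell genes 0 had a higher estimate, with a median of -1.06, and 0 were called. In Hoil1-/- mice 10 of the 20 identity genes had a higher estimate for Il4ra deletion, with a median of -0.01, near the 46.0% of all genes tested. The plasma cell median was -1.08 with 1 of 9 higher. With libraries 13 and 24 included, that plasma cell median was -0.02 with 4 of 9 higher, and 12 of the 20 identity genes had a higher estimate. The share of all genes with a higher estimate was then 46.9%.

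Germinal center genes were mostly low. The choice to name Rgs13, Gcsam, Mef2b and Il21 was made with their values in view. Rgs13, a regulator of G protein signalling in germinal center B cells, had 0 counts in the 3 Hoil1+/+ Il4raf/f libraries, 11, 91 and 519 counts in the Hoil1+/+ Il4raΔIEC libraries, 113, 0 and 49 in Hoil1-/- Il4raf/f libraries and 0 in the 3 Hoil1-/- Il4raΔIEC libraries. The 113 counts of Rgs13 were in library 13, which had the lowest Ms4a1, Pax5 and Cr2 levels of the 12. Which cells the Rgs13 reads came from was not tested. Gcsam had 1510 counts in library 22 and 14 to 275 in the other 11. Library 22 held most of the counts of Rgs13 and Gcsam in its group. Over the 12 CD45+ libraries, 3 counts amount to between 0.034 and 0.163 CPM. For Il4ra deletion in Hoil1+/+ mice neither Rgs13 (adjusted p = 0.508) nor Gcsam (log2 fold change 1.73, SE 0.85, adjusted p = 0.548) was called, and Neil1, a DNA glycosylase, was at 1.06 (SE 0.42, adjusted p = 0.532) without being called.

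S1pr2, which keeps B cells in the germinal center, had mean levels of 27.2 CPM in Hoil1+/+ Il4raf/f and 26.6 CPM in Hoil1+/+ Il4raΔIEC libraries, with a log2 fold change of 0.01 (SE 0.32). Mef2b had 0 counts in all 12 CD45+ libraries. Of 12 germinal center genes 11 could be tested, 10 had a higher estimate for Il4ra deletion in Hoil1+/+ mice and 0 were called, with a median log2 fold change of 1.06. For 5 of the 12 all 3 Il4raΔIEC libraries were above all 3 Il4raf/f libraries, against 6.16% of all genes tested. Of 8 T follicular helper genes 7 had a higher estimate and 0 were called, and Cxcr5 is among them. Il21, a cytokine of these cells, had 0 counts in 5 of the 12 libraries. Of 7 partners and antagonists of Bcl6, 5 had a higher estimate and 0 were called, with Prdm1, the plasma cell repressor that opposes Bcl6, at -0.47 (adjusted p = 0.79). Among all genes tested, 53.0% had a higher estimate for Il4ra deletion in Hoil1+/+ mice. Between the fractions, the quasi-likelihood test called 5 of the 11 germinal center genes higher and 3 lower in CD45+ cells. Among all 18778 genes tested there, it called 4602 higher and 4719 lower.

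**Figure D4:**
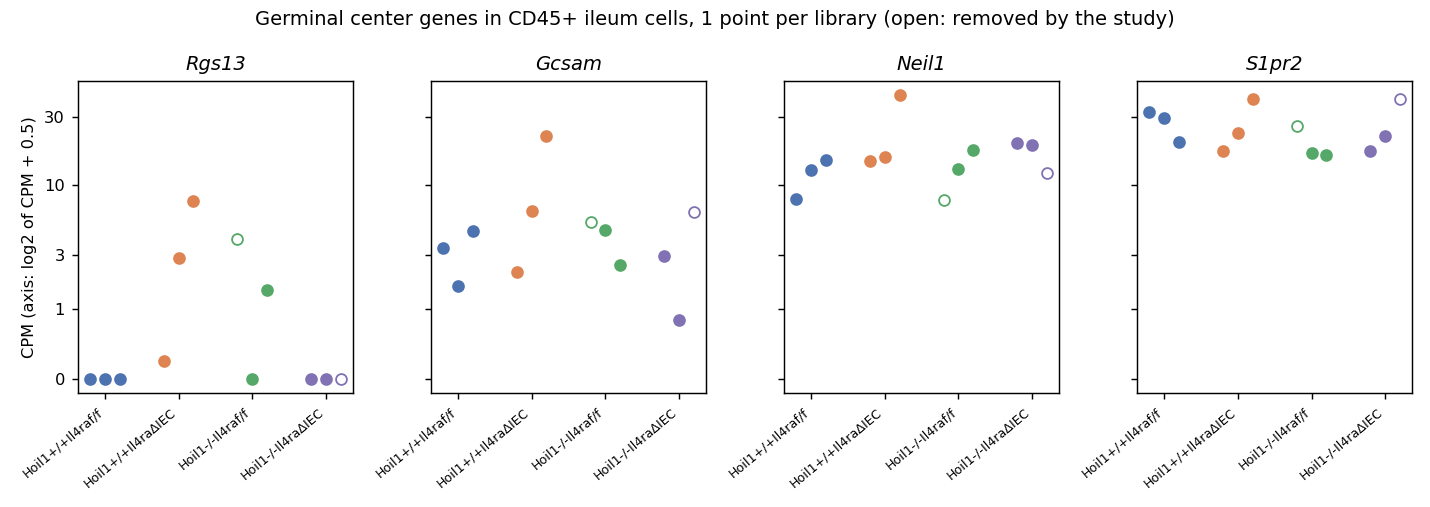
Levels of Rgs13, Gcsam, Neil1 and S1pr2 in the 12 CD45+ libraries by genotype, in CPM on a log axis, each point a library and open points the 2 that the study left out. Rgs13 is at 0 in the 3 Hoil1+/+ Il4raf/f libraries and highest in library 22, while the S1pr2 groups overlap.

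These mRNAs were mostly found in the CD45+ fraction. Over 21 libraries the log2 fold change of CD45+ against CD45- was 11.59 for Fcer2a (interval 9.55 to 13.62), 11.38 for Ms4a1, 10.53 for Cr2, 10.44 for Pax5, 9.41 for Cd22 and 8.06 for Cd79b. Bcl6 stood apart from them at 1.82 (interval 1.38 to 2.26). All 7 were called higher in CD45+ cells by edgeR's quasi-likelihood test (largest adjusted p = 7.63e-06), where 24.5% of 18778 genes were called higher. Ms4a1, Fcer2a and Cr2 had a count in 1 of the 12 CD45- libraries each, Pax5 in 2, Cd22 in 3 and Cd79b in 8, and none of these 6 exceeded 2.52 CPM there. Fitted fold changes for genes with so many 0 values depend on the prior count, and all 6 depend on single CD45- libraries. Without CD45- library 6 the estimate was 12.86 for Fcer2a, 11.93 for Cr2 and 11.06 for Cd22. Without library 11 it was 12.86 for Ms4a1 and 11.04 for Cd22, and without library 3 it was 11.14 for Cd22 and 12.08 for Pax5. Without library 10 Pax5 was at 11.94, and Cd79b was at 9.72 without library 9 and 9.03 without library 1. All remained called.

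Bcl6 had counts in all 12 CD45- libraries, at 8.81 to 29.1 CPM, which overlapped with its CD45+ range of 5.13 to 81.9 CPM. Its CD45- means were 12.8 ± 3.69 CPM in Hoil1+/+ Il4raf/f, 10.9 ± 3.0 in Hoil1+/+ Il4raΔIEC, 23.3 ± 5.18 in Hoil1-/- Il4raf/f and 18.1 ± 9.09 in Hoil1-/- Il4raΔIEC libraries (SD, n = 3). The CD45- Bcl6 levels of Hoil1-/- Il4raf/f libraries, 19.1 to 29.1 CPM, were above those of Hoil1+/+ Il4raf/f libraries, 8.83 to 16.1 CPM. In Il4raΔIEC mice the CD45- levels overlapped, at 10.7 to 28.2 CPM in Hoil1-/- and 8.81 to 14.3 CPM in Hoil1+/+ libraries. Neither difference was tested, and the share of all genes with such a separation was not counted. Library 23, a CD45- library of the Hoil1-/- Il4raf/f group, was left out by the study and is included in these levels. Bcl6 was the only gene of the 7 with a count in every CD45- library.

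**Figure D5:**
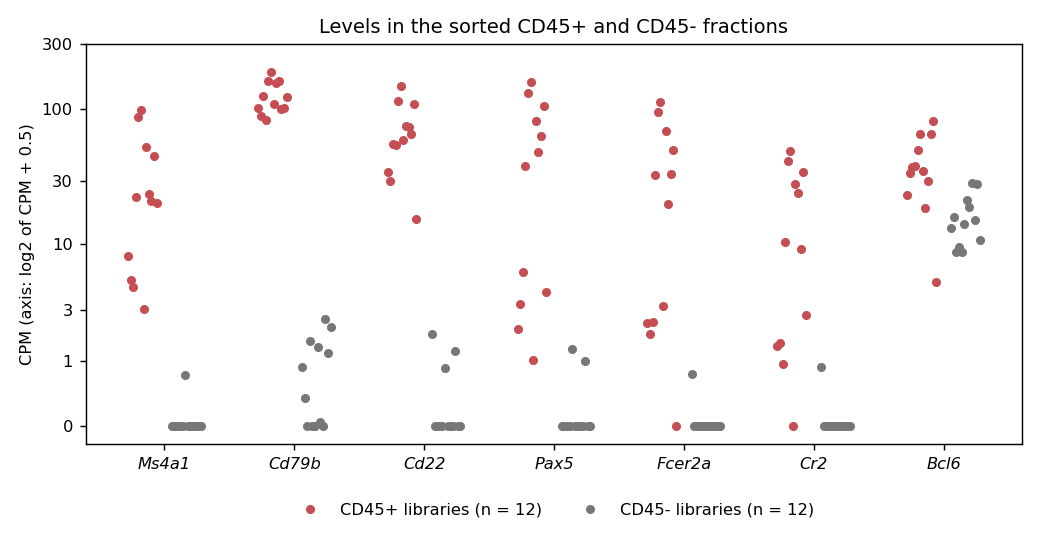
Level of the 7 genes in the 12 CD45+ and 12 CD45- libraries, in CPM. Ms4a1, Cd79b, Cd22, Pax5, Fcer2a and Cr2 are at or near 0 in CD45- libraries, at 2.52 CPM or less, whereas Bcl6 is at 8.81 to 29.1 CPM in all 12.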

How the data were processed

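mRNA of sorted CD45+ and CD45- ileal cells was measured in 24 libraries. Per the labels and the study's methods, the authors trimmed adapters with cutadapt, aligned reads to mm10 with STAR and deposited raw gene counts from featureCounts; the versions were not given in the sources used here. From these deposited counts, genes were matched to symbols of GENCODE M21 by identifier without version, and libraries were grouped by the genotype and fraction in the labels. edgeR 4.0.16 (R 4.3.3, limma 3.58.1) fitted 4 genotype means with TMM scaling, filterByExpr (minimum count 10, minimum total 15) and quasi-likelihood tests, on the study's list of 10 CD45+ libraries. For the fractions it fitted a mean for each genotype in each fraction, with the same settings, on 21 libraries. Calls required a Benjamini-Hochberg adjusted p under 0.05. Counting precision follows depth, which was 14938629 to 76807504 counts in CD45+ and 6028275 to 68345191 in CD45- libraries. The model was run on simulated counts for the Hoil1 effect averaged over Il4ra only. That run did not cover the contrasts within a genotype or the interaction. Alternatives were all libraries, RLE size factors, total counts, no filter, DESeq2 1.42.0, the likelihood ratio test, removal of immunoglobulin genes and leaving out each library. Likeness was Pearson's r of log2(CPM + 0.5), and the rule named the 10 genes most alike to the mean of the 6 B cell genes, the 5 most alike to Bcl6, and in each list the 6 with the highest mean CPM or any that passed the test, of which the text gives a selection. The lists named in the text are those of B cell identity, B cell receptor signalling, plasma cells, germinal center, Bcl6 partners, T follicular helper, T cell, macrophage and dendritic cell, ILC2, and epithelial genes. The genes and lists were chosen with earlier results of these data known. Results of some genes of these lists are not reported here.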

Additional observations from a re-analysis of the deposited data

How the results depend on the processing

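The members called depended on the test in the CD45+ contrasts. DESeq2 and the likelihood ratio test called 3 and 3 for the Hoil1 effect averaged, 5 and 5 for the Il4ra effect averaged, 4 and 4 for the interaction, 5 and 4 for Il4ra deletion in Hoil1+/+, 1 and 1 for the same deletion in Hoil1-/-, and 4 and 4 for Hoil1-/- against Hoil1+/+ in Il4raf/f, where the quasi-likelihood test called 0. With no filter 4 were called for Il4ra deletion in Hoil1+/+ and 1 for Hoil1-/- against Hoil1+/+ in Il4raf/f, and for the first contrast 3 were called without immunoglobulin genes and 2 with total counts. Leaving out a library gave 0 to 4 and 0 to 1 members called in these contrasts. The 7 calls between fractions held under every setting run. The cause of these changes was not tested.

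Estimates near 0 reversed. With all libraries, Bcl6 was at -0.10 for the Hoil1 effect averaged and -0.0074 for Hoil1-/- against Hoil1+/+ in Il4raΔIEC, Cd79b at 0.026 for the Il4ra effect averaged, and, for Il4ra deletion in Hoil1-/-, Ms4a1 at 0.12 and Cd22 at -0.14. With total counts, which move the median of all genes to 0.43 for Il4ra deletion in Hoil1+/+ and 0.22 in Hoil1-/-, Cd79b was at 0.29 for the Il4ra effect averaged, and Ms4a1, Fcer2a and Cr2 were at 0.016, 0.080 and 0.037 in Hoil1-/-. Leaving out a library gave -0.10 to 0.16 for Cd79b and -0.11 to 0.20 for Bcl6 (Hoil1 averaged), -0.72 to 0.030 for Cd22 (Hoil1-/- against Hoil1+/+ in Il4raΔIEC), -0.19 to 0.062 for Cd79b (Il4ra averaged), and, for Il4ra deletion in Hoil1-/-, -0.87 to 0.51 for Ms4a1, -0.18 to 0.56 for Cd22, -0.019 to 0.84 for Pax5, -0.73 to 1.09 for Fcer2a and -1.51 to 0.39 for Cr2. The mean Fcer2a level in Hoil1+/+ Il4raf/f was 1.85 CPM with total counts. No paired analysis was possible because the groups share no replicate numbers and the labels do not tie CD45+ and CD45- libraries to a mouse. Ages of both fractions match in part within a genotype, so some libraries may share a mouse, and the fraction test treated them as unpaired. With 2 libraries in each Hoil1-/- group, differences there rest on few samples.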
